A study of Homo sapiens with 32 samples.

Results

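LNCaP cells exposed to neuregulin 1 (NRG-1) for 4 hours were compared with LNCaP cells exposed for 1 hour, to describe which mRNAs of the early response had fallen by the later time and which genes had started late. The comparison rests on 8 of the 32 samples of the series, the 4 libraries labelled NRG-1 for 4 hours (NRG1_4h) and the 4 labelled NRG-1 for 1 hour (NRG1_1h), which were chosen by these labels alone. LNCaP is an androgen-dependent line of prostate cancer cells, taken from a metastasis in a lymph node, and all groups used here are of this 1 line. Both groups were plated in medium with fetal bovine serum (FBS), moved on the next day to medium with charcoal-stripped serum (CSS), which holds little steroid hormone, and exposed on the day after to 100 ng/mL NRG-1. Untreated cells in CSS and cells exposed to 100 ng/mL EGF for 5 minutes, 1 hour, or 4 hours, each with 4 libraries, are used as reference groups, and the other groups of the series (FBS, and NRG-1 for 5 minutes) entered the fit. Each group held 2 libraries from batch 1 and 2 from batch 2, and the labels call the numbered libraries biological replicates without saying whether they came from separate cultures, so P values measure the spread between these libraries. The labels give 1 untreated CSS group and not the time of its harvest, so 3 hours more of culture and 3 hours more of ligand cannot be told apart in the direct comparison.

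NRG-1 is an EGF-like ligand that binds ERBB3 and ERBB4, and the occupied receptor pairs with ERBB2 (HER2) to activate the RAS-ERK and PI3K-AKT pathways. Growth factors first induce immediate-early genes, many of which encode transcription factors, from transcripts that are made and destroyed quickly. Delayed genes follow, among them inhibitors that damp the pathway, and secreted and adhesion proteins appear later. An mRNA level is set by synthesis and decay together, and a level that falls between 1 hour and 4 hours shows that the balance changed, without separating the parts.

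Expected counts summed to 73597894 to 90465137 per library at 1 hour and to 65936153 to 77598674 at 4 hours, so that counting error is small for all but the rarest mRNAs. All 10 luminal markers (such as *KLK3* and *KRT8*) were above 1 TPM (a transcript level corrected for length and scaled to the same total in each library) in all 8 libraries, and of 18 markers of other cell types (basal, stromal, endothelial, leukocyte, and neuroendocrine) 14 were below 1 TPM in all 8 and 5 of these were at 0. The summed luminal level was 3533 to 4121 TPM at 1 hour and 3465 to 4737 TPM at 4 hours, and the summed level of the other markers was 5.71 to 9.16 TPM and 4.81 to 7.50 TPM. In log2 CPM (counts scaled to library size), libraries of the same group correlated at *r* = 0.988 to 0.995, and libraries of different times at 0.976 to 0.985. Values of single libraries are in CPM after trimmed-mean (TMM) scaling and are listed in 1 order throughout, batch 1 replicates 1 and 2 and then batch 2 replicates 1 and 2.

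By 4 hours, 768 of 16995 genes tested were higher than at 1 hour and 386 were lower, where a differentially expressed gene (DEG) had a Benjamini-Hochberg adjusted P value under 0.05 and a log2 fold change beyond 1. These were 4.52% and 2.27% of the genes tested. With the adjusted P value alone, 3234 genes (19.0%) were higher and 3140 (18.5%) were lower, so most changes were smaller than 2-fold. The 4 libraries at 4 hours lay entirely above or below those at 1 hour for 683 of the 768 and for 313 of the 386. Over all 16995 genes tested, 2132 lay entirely above and 1886 entirely below. The DEGs were called on these same libraries, so their separation is not a separate test. Large rises outnumbered large falls, since 330 genes rose over 4-fold (log2 fold change beyond 2) and 70 fell over 4-fold, and 150 rose and 22 fell over 8-fold. The values are averages over the cells of a culture, in which fewer responding cells and less mRNA per cell cannot be told apart. Batch 1 alone gave 785 higher and 426 lower genes and batch 2 alone gave 510 and 217.

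**Figure D1:**
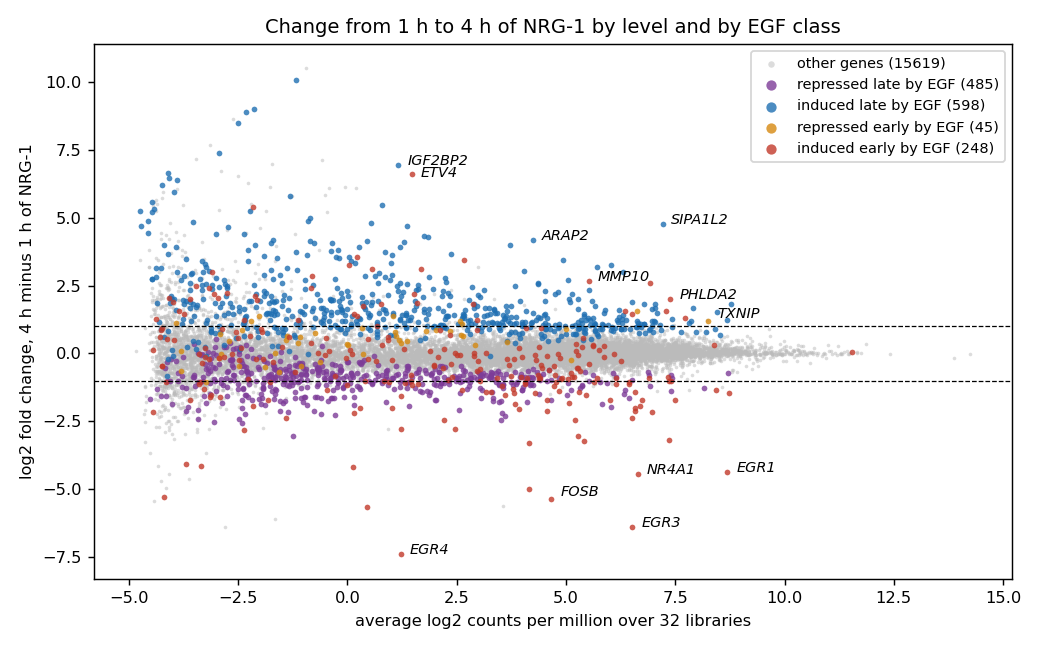
Log2 fold change from 1 hour to 4 hours of NRG-1 (vertical axis) against the average log2 CPM over all 32 libraries (horizontal axis), 1 point per gene tested (16995), coloured by the class of the gene in the EGF libraries, with dashed lines at log2 fold changes of 1 and -1. *EGR4* (-7.41) and *EGR3* (-6.41) lie lowest among the genes named, and *IGF2BP2* (6.93) and *ETV4* (6.60) highest.

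Set against untreated CSS, the DEGs of the direct comparison divided by their level at 1 hour, which is a description only, since the same NRG-1 libraries stand in both contrasts. Of the 386 lower genes, 62 had been DEGs above CSS at 1 hour, 263 had been within 0.5 (log2) of CSS at 1 hour, and 61 lay between these limits. At 4 hours, 15 of the 62 were still DEGs above CSS, and 224 of the 263 were DEGs below it. Of the 768 higher genes, 17 had already been DEGs above CSS at 1 hour, 519 had been within 0.5 of CSS, 226 lay between the limits, and 6 had been DEGs below CSS. At 4 hours 456 of the 519 were DEGs above CSS. Late starting was thus the common pattern among rises, and falls from an untreated level outnumbered falls from an early rise.

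To ask what became of early and late genes without using the NRG-1 libraries to choose them, classes were taken from the EGF and CSS libraries, none of which enters the direct comparison. Genes induced early were DEGs above CSS at 1 hour of EGF, and genes repressed early were DEGs below it. Genes induced or repressed late were DEGs at 4 hours of EGF with a log2 fold change within 0.5 of CSS at 1 hour. Of 248 genes induced early by EGF, 78 (31.5%) were lower at 4 hours of NRG-1 than at 1 hour, 39 (15.7%) were higher, and 131 were neither, beside 2.27% lower and 4.52% higher over all genes. Their median log2 fold change was -0.39, against -0.01 over all genes. Of 598 genes induced late by EGF, 446 (74.6%) were higher and 0 lower, with a median of 1.44. Of 485 genes repressed late, 183 (37.7%) were lower and 0 higher, with a median of -0.90. The 45 genes repressed early had 7 (15.6%) that were higher and 0 lower, with a median of 0.50. With batch 1 alone 72 early genes were lower, and with batch 2 alone 67. At the limit of the early class, *POTEE* was just inside at 1.01 (log2, EGF at 1 hour over CSS) and *IL10RA* just outside at 0.996.

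**Figure D2:**
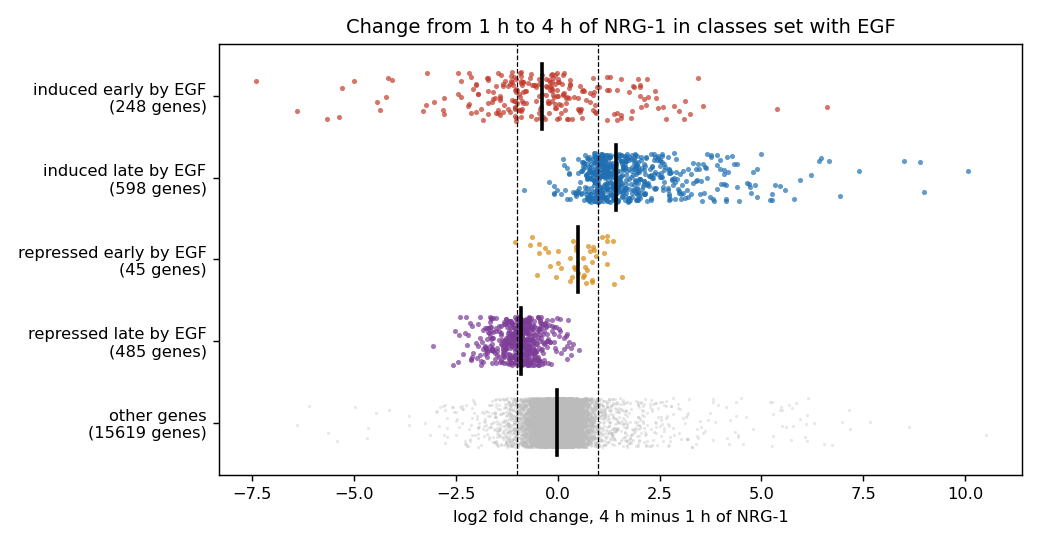
Log2 fold change from 1 hour to 4 hours of NRG-1 for the genes of each class set with the EGF libraries, 1 point per gene, with the class median as a black bar and dashed lines at -1 and 1. The medians are -0.39 for genes induced early, 1.44 for genes induced late, 0.50 for genes repressed early, and -0.90 for genes repressed late, and the early-induced class spreads to both sides.

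The EGR transcription factors, zinc-finger proteins of the immediate-early response, were among the largest falls, and *EGR4* and *EGR3* had the largest of the genes named. *EGR1* was at 1626, 1477, 1272 and 1033 CPM at 1 hour and at 59.8, 59.3, 79.2 and 64.6 CPM at 4 hours, a change of -4.36 ± 0.35 on the log2 scale (± SE here and in later such brackets, with an adjusted P value of 2.98e-11). *EGR3* went from 257, 233, 198 and 181 CPM to 3.06, 2.98, 2.26 and 2.13 CPM (-6.41 ± 0.14, adjusted P = 1.81e-23). Both groups of 4 were far apart for each gene, yet the 4-hour levels remained above untreated CSS, which held 1.26 ± 0.0942 CPM of *EGR1* and 0.126 ± 0.0580 CPM of *EGR3* (mean ± SD, n = 4). *EGR2* fell from 64.0, 60.1, 25.5 and 23.2 CPM to 0.988, 1.22, 1.18 and 1.53 CPM (-5.01 ± 0.24). Its 1-hour level was over 2-fold higher in batch 1 than in batch 2, and the groups did not overlap in either batch. *EGR4* was a rare mRNA with 586, 488, 422 and 309 counts at 1 hour and 4, 0, 4 and 1 counts at 4 hours, a ratio of 170 over summed counts (95% binomial interval 89.2 to 372, counting error only, as for all intervals on counts here). The corepressors that bind EGR proteins moved less or the other way. *NAB2* was at 53.1, 43.2, 72.4 and 55.7 CPM and then at 37.2, 38.2, 31.0 and 23.3 CPM (-0.78 ± 0.16, under the fold limit), and with batch 2 alone it was a DEG (-1.22). *NAB1* rose from 21.6, 17.0, 19.9 and 17.3 CPM to 72.6, 70.1, 52.8 and 47.7 CPM (1.65 ± 0.13, adjusted P = 4.28e-11). In all, 4 of the 6 EGR and NAB genes fell and 1 rose, beside 2.27% lower and 4.52% higher over all genes.

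Among AP-1 genes, whose products pair as FOS, JUN, and ATF dimers on DNA, 6 of 11 fell and 2 rose. Over all genes 2.27% fell and 4.52% rose as DEGs. *FOSB* fell from 56.6, 55.5, 45.4 and 39.5 CPM to 0.988, 0.702, 1.57 and 1.53 CPM (-5.36 ± 0.23, adjusted P = 2.84e-17), and *FOS* from 148, 143, 150.4 and 137 CPM to 8.59, 10.3, 23.1 and 21.5 CPM (-3.24 ± 0.27, adjusted P = 8.07e-11). The 4-hour level of *FOS* was over 2-fold lower in batch 1 than in batch 2. *ATF3*, a stress-responsive repressor and activator, fell from 333, 319, 274 and 376 CPM to 27.0, 27.9, 38.0 and 48.5 CPM (-3.21 ± 0.18), below the 55.0 ± 3.62 CPM of CSS. *JUNB* fell from 233, 249, 245 and 231 CPM to 51.6, 53.9, 73.9 and 64.7 CPM, and *FOSL1* and *FOSL2* (-1.42) fell too. *FOSL1* was at 2.83 ± 0.313 CPM and then 0.709 ± 0.0923 CPM. *JUN* itself was 105 ± 17.2 CPM at 1 hour and 109 ± 18.7 CPM at 4 hours (0.06 ± 0.10, adjusted P = 0.706), and *JUND* (-0.66) and *JDP2* (-0.86) passed the P value without the fold limit. The BATF members rose from very low levels. *BATF3* went from 11, 13, 16 and 28 counts to 92, 89, 90 and 95 counts, a 6.36-fold ratio (95% interval 4.90 to 8.36), and *BATF* from a summed 2 counts to 14, a ratio of 8.27 with a counting interval of 1.90 to 75.0. *BATF* did not pass with either batch alone.

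All 3 NR4A orphan nuclear receptors fell, and all had been induced early by EGF. *NR4A1* was at 256, 248, 208 and 193 CPM at 1 hour and at 10.5, 10.1, 11.1 and 9.63 CPM at 4 hours (-4.45 ± 0.11, adjusted P = 2.96e-22), close to its 8.62 ± 0.312 CPM in CSS. *NR4A3* (-4.21) and *NR4A2* (-2.21) were much rarer, at 2.14 ± 0.216 and 1.94 ± 0.159 CPM at 1 hour and at 0.113 ± 0.0610 and 0.420 ± 0.115 CPM at 4 hours. Other mRNAs among the largest falls were *RASD1*, a RAS-like GTPase, *CYR61*, a secreted matricellular protein also called CCN1, and *SLC30A10*, a metal transporter. *RASD1* went from 35.8, 33.8, 41.2 and 39.3 CPM to 3.24, 3.82, 4.06 and 4.18 CPM (-3.30 ± 0.18). *CYR61* went from 59.0, 72.4, 73.1 and 90.7 CPM to 8.05, 8.92, 9.25 and 9.62 CPM (-3.05 ± 0.13), close to the 8.37 ± 0.594 CPM of CSS. *SLC30A10* went from 3.49, 2.98, 4.85 and 5.49 CPM to 0.387, 0.436, 0.825 and 0.812 CPM (-2.78 ± 0.15). No library of 1 time reached the range of the other for these 3 genes. *KLF10*, a TGF-β-inducible zinc-finger factor, fell from 296, 264, 327 and 355 CPM to 64.4, 69.0, 68.4 and 72.3 CPM (-2.18 ± 0.09), and *IER2* from 239, 246, 213 and 177 CPM to 71.0, 71.2, 68.3 and 55.7 CPM (-1.71 ± 0.10). In a wider list of 40 further early genes tested, 10 fell and 2 rose, beside 2.27% lower and 4.52% higher over all genes. The median log2 fold change of this list was -0.35. *TRIB1*, a pseudokinase, came back close to its untreated level. It was at 179.7 ± 18.7 CPM and then 34.9 ± 4.77 CPM, against 34.8 ± 7.53 CPM in CSS.

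**Figure D3:**
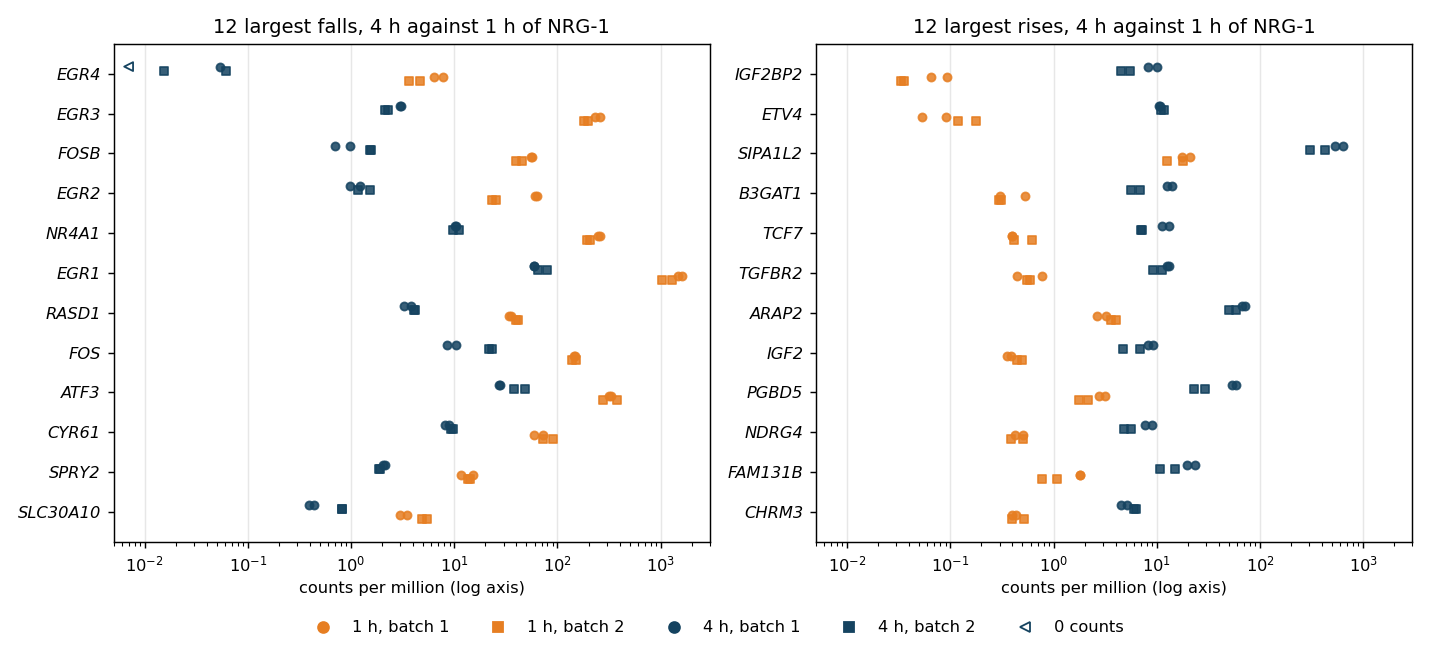
CPM (log axis) of the 12 genes with the largest falls (left) and the 12 with the largest rises (right) in each of the 8 NRG-1 libraries, orange at 1 hour and blue at 4 hours, circles for batch 1 and squares for batch 2, with an open triangle for a library at 0 counts. The 2 times do not overlap for any of the 24 genes.

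Negative regulators of ERK signaling did not move as 1 group. Of 11 dual-specificity phosphatases (DUSPs), which dephosphorylate MAP kinases, 2 fell, 1 rose, and 8 stayed within the limits. Over all genes 2.27% fell and 4.52% rose, the shares to set beside each list of this paragraph. *DUSP2* fell from 55.2, 59.6, 45.1 and 43.8 CPM to 11.9, 11.6, 11.8 and 10.9 CPM (-2.14 ± 0.13) and *DUSP5*, specific for ERK, from 29.5, 30.3, 29.0 and 26.8 CPM to 8.53, 8.70, 7.39 and 6.92 CPM (-1.88 ± 0.08). *DUSP6*, the cytoplasmic ERK phosphatase, was at 13.4, 13.7, 15.1 and 15.7 CPM and then at 14.0, 15.0, 14.4 and 14.7 CPM (0.01 ± 0.11, adjusted P = 0.971), with overlapping groups, and both times were far above the 0.717 ± 0.101 CPM of CSS. *DUSP9* started late, from 0.992, 1.05, 1.35 and 1.06 CPM to 6.71, 5.58, 5.25 and 3.81 CPM (2.27 ± 0.17). The other members had log2 fold changes between -0.81 (*DUSP8*) and 0.31 (*DUSP7*). Of the Sprouty and SPRED inhibitors of RAS-ERK signaling, *SPRY2* fell from 15.2, 11.6, 14.3 and 13.7 CPM to 2.03, 2.12, 1.89 and 1.85 CPM (-2.80 ± 0.10), *SPRED1* rose from 19.1, 16.7, 16.2 and 16.4 CPM to 52.8, 53.0, 32.3 and 36.3 CPM (1.32 ± 0.09), and 5 of 7 were not DEGs. *SPRY4* was at 2.18 ± 0.193 CPM at 1 hour and 3.14 ± 0.369 CPM at 4 hours (0.53 ± 0.16), against 0.252 ± 0.0895 CPM in CSS.

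The fall of the 78 early genes can be put as an average time in which the level dropped to 50% of its value, 180 min divided by the size of the log2 fold change. This figure describes the level relative to all mRNA over the 3 hours and is not an mRNA half-life, since the rate of synthesis is unknown and the peak need not lie at 1 hour. The 78 were chosen by a fall over 2-fold, which holds this figure under 180 min for each of them. Their median was 109 min. There were 2 genes under 30 min and 15 under 60 min. *EGR4* was at 24.3 min, a value that rests on 9 counts at 4 hours, *EGR3* at 28.1 min (95% interval 26.9 to 29.4), *EGR1* at 41.2 min (95% interval 35.4 to 49.3), *FOS* at 55.6 min (95% interval 47.5 to 67.2), *ZFP36* at 73.7 min (95% interval 67.6 to 81.0), and *ERRFI1* at 159.9 min (95% interval 141 to 185). By 4 hours 35 of the 78 had a mean below that of CSS, 21 held under 10% of their 1-hour rise, and 22 held 10% to 50%. That 0 held more follows from the choice, since a fall over 2-fold leaves under 50% of the rise. The share of the rise left was 1.14% for *EGR3*, 0.789% for *NR4A1*, 4.77% for *EGR1*, 10.6% for *FOS*, 15.1% for *JUNB*, and 21.4% for *DUSP5*. Tested against CSS with the adjusted P value alone, 19 of the 78 were below CSS at 4 hours and 28 above. The share of all genes on each side of CSS is not given here, so these counts stand without a background.

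**Figure D4:**
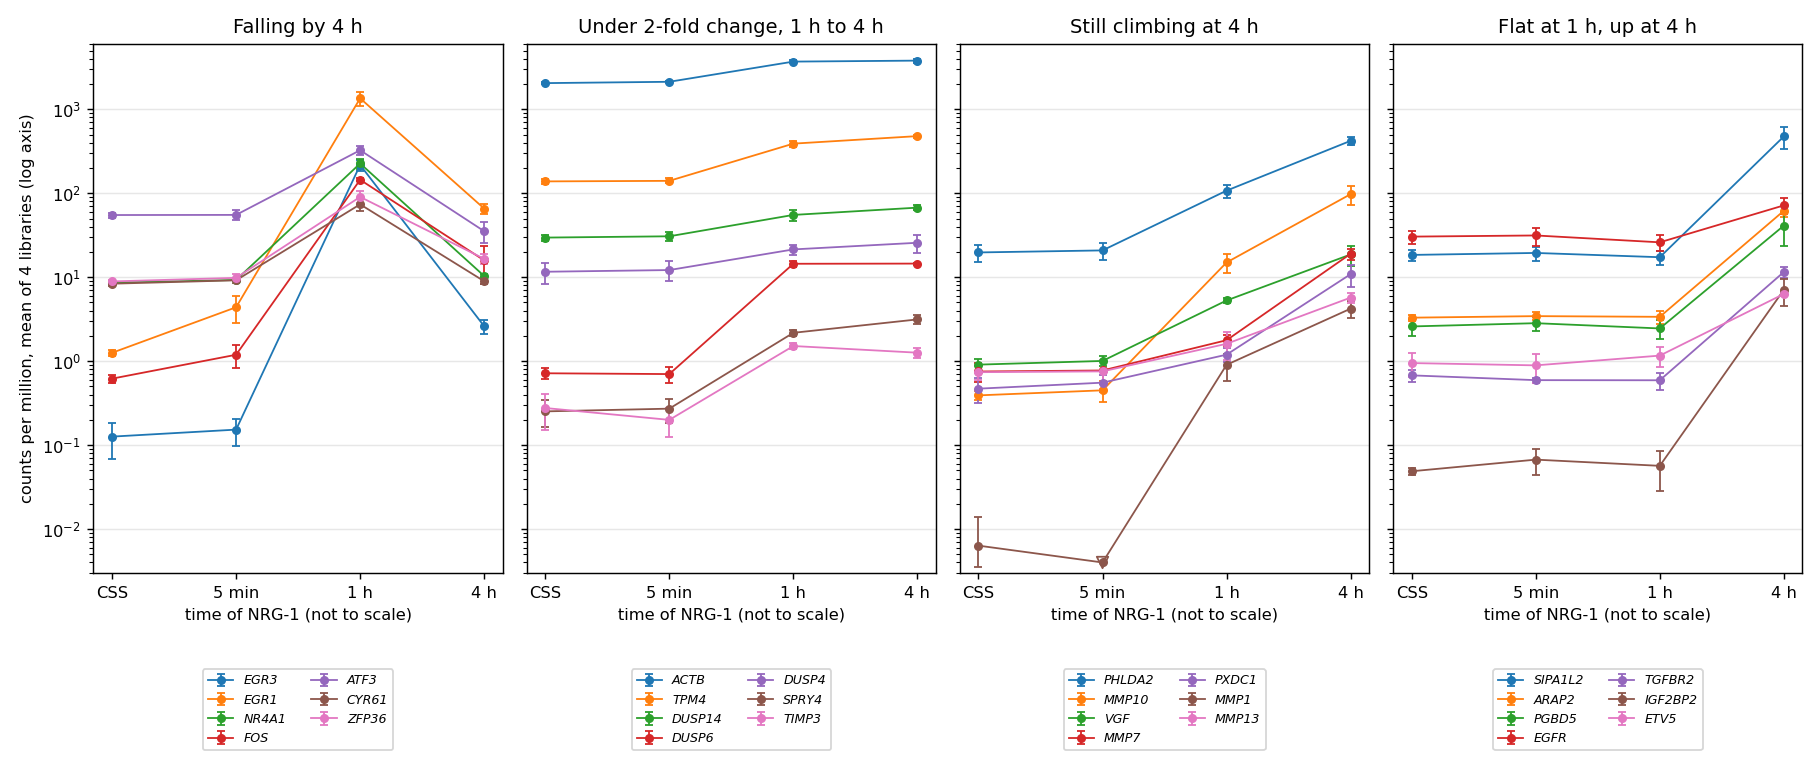
Mean CPM of 4 libraries (log axis, bars show SD) in CSS and after 5 minutes, 1 hour, and 4 hours of NRG-1 for genes that fell by 4 hours, genes under 2-fold change between 1 and 4 hours, genes above CSS at 1 hour that rose further, and genes that were flat at 1 hour. A triangle marks a mean under 0.004 CPM, drawn at 0.004 (*MMP1* at 5 minutes). *EGR1* peaks at 1352 CPM and is at 65.7 CPM at 4 hours, *DUSP6* is at 14.5 CPM at both times, and *SIPA1L2* is at 17.3 CPM and then 475 CPM.

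AU-rich elements in 3′ untranslated regions (UTRs) mark many short-lived mRNAs, and proteins of the ZFP36 family bind them and recruit deadenylases. The nonamer TTATTTATT was counted in the 3′ UTR of the canonical transcript (GENCODE v44, GRCh38), which was found for 70 of the 78 early genes that fell. It was present in 15 of the 70 (21.4%), in 19 of 114 early genes that were neither higher nor lower (16.7%), in 2 of 35 early genes that rose (5.71%), in 34 of 392 late genes that rose (8.67%), and in 1273 of 13951 tested genes with a 3′ UTR (9.12%). Median 3′ UTR lengths were 1216, 1378, 1144, 1713, and 1280 bases in these sets. Of the 7 early-repressed genes that rose with a matched 3′ UTR, 4 held it (57.1%, median length 1993 bases). For late-repressed genes that fell the check is void by the limit of 80%, since 79.8% were matched, and 27 of those 146 held the nonamer (18.5%). The part of 3′ UTR length in these shares was not tested. The short windows that follow are from 4 genes that fell and are shown because they hold the element, in capitals, in the sense strand with 10 bases on each side. The match is a description of the sequence, not a test of its use in these cells.
FOS (chr14:75282060-75282088, plus strand): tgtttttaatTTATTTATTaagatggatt
ZFP36 (chr19:39409196-39409224, plus strand): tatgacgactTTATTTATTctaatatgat
CXCL8 (chr4:73742664-73742692, plus strand): atgtaaagtaTTATTTATTtgaatctaca
GDF15 (chr19:18389054-18389082, plus strand): tataagtctgTTATTTATTattaatttat

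The genes in these windows fell by different amounts. *FOS* is described above, and *ZFP36*, which encodes the AU-rich element binding protein tristetraprolin, fell from 109, 90.0, 89.9 and 72.8 CPM to 15.4, 14.8, 19.9 and 16.2 CPM (-2.44 ± 0.11, adjusted P = 6.67e-17). *CXCL8*, the chemokine IL-8, was rare, with 29, 27, 44 and 75 counts at 1 hour and 9, 7, 6 and 6 counts at 4 hours (-2.38 ± 0.44). *GDF15*, a secreted stress cytokine, was at 557 ± 20.3 CPM at 1 hour and 223 ± 30.1 CPM at 4 hours (-1.33 ± 0.07). The other ZFP36 genes had smaller changes, -0.71 for *ZFP36L1* and -0.36 for *ZFP36L2*. Among the 12 largest falls of genes whose log2 CPM averaged 1 or more, *FOS* held 1 nonamer. *EGR1*, *EGR2*, *EGR3*, *EGR4*, *FOSB*, *NR4A1*, *RASD1*, *ATF3*, *SPRY2*, and *SLC30A10* had 0 each, and *CYR61* was not matched. Of 28 genes of the general decay machinery (CCR4-NOT, decapping, and exosome subunits and related factors), 0 were DEGs in either direction, with a median log2 fold change of -0.01. As DEGs, 2.27% of all genes were lower and 4.52% higher. By the adjusted P value alone 10 of the 28 were lower and 3 higher, beside 18.5% and 19.0% of all genes.

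Gene structure differed between early and late genes. The canonical transcript spanned a median of 9.93 kb with 4 exons for the 78 early genes that fell (89.7% matched), 12.7 kb with 5 exons for the 39 that rose (89.7%), 14.5 kb with 5 exons for the 131 in between (87.0%), 47.0 kb with 10 exons for the 446 late genes that rose (87.9%), and 27.4 kb with 9 exons over all genes tested (82.3%). These are medians without a test.

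Early genes that were not DEGs between 1 and 4 hours of NRG-1 made up the larger part of the class. Of the 131 that were not DEGs, 41 were lower and 21 higher by the adjusted P value alone, and 69 did not pass it. Among all 15841 genes that were not DEGs, 2754 were lower and 2466 higher by that rule. Cytoskeletal genes were among the most abundant. *ACTB*, β-actin, was at 3756, 3878, 3645 and 3525 CPM and then at 4002, 3918, 3739 and 3549 CPM (0.04 ± 0.04, adjusted P = 0.556), against 2051 ± 56.9 CPM in CSS. *TPM4*, a tropomyosin, was at 390.0 ± 34.0 CPM at 1 hour and 479 ± 21.6 CPM at 4 hours (0.30 ± 0.08), against 138 ± 10.5 CPM in CSS. *MYADM* (207 ± 21.1 CPM to 111 ± 14.4 CPM, -0.91) and *SLC25A25* (101 ± 14.5 CPM to 53.6 ± 7.90 CPM, -0.92) fell and passed the P value but lay just within the fold limit. *EPPK1* (241 ± 73.0 CPM to 131 ± 42.3 CPM, -0.89) did too, with overlapping groups, and was a DEG (-1.04) without the 1-hour library of batch 2 replicate 2. Among 16 actin and SRF target genes tested 4 rose and 0 fell, beside 4.52% higher and 2.27% lower over all genes. The largest rises of this list were those of *MYL9*, a myosin light chain (1.28 ± 0.313 CPM to 3.87 ± 0.969 CPM, 1.59 ± 0.17), and *FLNA*, filamin A (479.5, 402, 399.7 and 266 CPM to 1428, 1119.6, 1058 and 728 CPM, 1.48 ± 0.15).

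The 250 bases before the RefSeq start site (GRCh38.p14) are shown for 3 genes that hold a CArG box, the site bound by serum response factor (SRF), and that went different ways after 1 hour. *EGR1* fell 20.6-fold, *SRF* fell from 170.4 ± 18.3 CPM to 63.4 ± 5.06 CPM (-1.43 ± 0.09), and *TPM4* stayed high. CArG boxes are in capitals. On both strands, 312 of 27305 RefSeq promoters of this length (1.14%) hold 1. The table gave promoters for 171 of the 248 early genes (under 80%), so no share over the class is given.
EGR1 (chr5:138465229-138465478, plus strand): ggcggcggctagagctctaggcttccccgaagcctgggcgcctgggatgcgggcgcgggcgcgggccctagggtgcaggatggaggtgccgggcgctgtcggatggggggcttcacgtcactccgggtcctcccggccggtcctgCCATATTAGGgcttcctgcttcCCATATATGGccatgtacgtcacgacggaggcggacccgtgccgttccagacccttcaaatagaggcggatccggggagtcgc
SRF (chr6:43171019-43171268, plus strand): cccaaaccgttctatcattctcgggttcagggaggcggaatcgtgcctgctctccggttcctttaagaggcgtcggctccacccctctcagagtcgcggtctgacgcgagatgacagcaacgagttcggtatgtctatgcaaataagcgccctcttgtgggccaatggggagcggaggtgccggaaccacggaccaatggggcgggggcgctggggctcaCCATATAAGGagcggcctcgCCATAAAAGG
TPM4 (chr19:16067288-16067537, plus strand): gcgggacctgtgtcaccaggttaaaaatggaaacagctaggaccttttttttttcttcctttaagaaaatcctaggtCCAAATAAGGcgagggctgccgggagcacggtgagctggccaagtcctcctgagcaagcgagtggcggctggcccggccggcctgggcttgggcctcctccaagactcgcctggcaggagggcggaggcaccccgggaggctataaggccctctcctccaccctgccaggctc

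Of the genes induced early by EGF, 39 were higher at 4 hours of NRG-1, 38 of them with all 4 libraries above those at 1 hour. Over all genes tested, 2132 of 16995 had all 4 libraries above. Of the 39, 17 were already DEGs above CSS at 1 hour of NRG-1 and 22 were not. Matrix metalloproteinases (MMPs), which cut extracellular matrix, were among those with the largest rises. *MMP10* rose from 13.9, 10.7, 15.6 and 19.7 CPM to 118, 116, 65.4 and 90.5 CPM (2.66 ± 0.22, adjusted P = 4.12e-11). *MMP7* rose from 1.63, 1.52, 1.84 and 2.13 CPM to 18.7, 19.9, 15.3 and 22.3 CPM (3.43 ± 0.16, adjusted P = 3.72e-16). The collagenase *MMP1* rose from 0.675, 0.589, 1.12 and 1.23 CPM to 4.30, 5.20, 2.90 and 4.49 CPM (2.19 ± 0.27), and the collagenase *MMP13* from 1.30, 0.955, 1.96 and 2.23 CPM to 6.50, 6.24, 4.67 and 5.45 CPM (1.85 ± 0.25). *MMP3* was near the limit of detection, with a summed 11 counts at 1 hour and 27 at 4 hours (ratio 2.90, 95% interval 1.39 to 6.48), and did not pass the test (adjusted P = 0.0615), although it did without the 1-hour or without the 4-hour library of batch 2 replicate 2 (log2 fold changes of 1.75 and 1.63, with adjusted P values of 0.0476 and 0.0452) and with batch 1 alone (2.38, adjusted P = 0.0271). *TIMP1*, an inhibitor of MMPs that was in none of the EGF classes, went from 2, 1, 2 and 3 counts to 105, 94, 82 and 114 counts, a ratio of 58.3 (95% interval 29.3 to 136). *TIMP1* rose with EGF too, by 6.59 (log2) from 1 to 4 hours. It missed the late class because its value at 1 hour of EGF over CSS, 0.75, was past the limit of 0.5. Of 13 MMP and TIMP genes tested 5 rose and 0 fell, beside 4.52% higher and 2.27% lower over all genes. The remaining values ran from -0.61 (*MMP11*) to 0.66 (*MMP24*). The promoter of *MMP7* is shown because it holds the AP-1 site TGACTCA, read here on the opposite strand and in capitals, 67 bases before the start site. On either strand 1136 of 27305 RefSeq promoters (4.16%) hold this site.
MMP7 (chr11:102530748-102530997, minus strand): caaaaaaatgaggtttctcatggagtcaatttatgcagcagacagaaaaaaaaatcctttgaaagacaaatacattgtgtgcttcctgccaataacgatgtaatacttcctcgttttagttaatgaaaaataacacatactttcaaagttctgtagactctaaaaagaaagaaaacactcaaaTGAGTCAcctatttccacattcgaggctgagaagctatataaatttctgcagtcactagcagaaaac

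Other genes that were DEGs above CSS at 1 hour of NRG-1 and rose further were *PHLDA2*, a growth-restraining pleckstrin-homology protein, *PXDC1*, and *VGF*, a secreted neuropeptide precursor. *PHLDA2* rose from 93.8, 89.2, 127 and 120.3 CPM to 451, 465, 391 and 379 CPM (2.01 ± 0.14), from a level that at 1 hour was already above the 19.7 ± 4.56 CPM of CSS. *PXDC1* rose from 1.20 ± 0.229 CPM to 10.9 ± 3.26 CPM (3.12 ± 0.20). *VGF* rose from 5.40, 4.77, 5.48 and 5.49 CPM to 23.4, 22.7, 15.3 and 13.2 CPM (1.81 ± 0.16). *ETV4* belongs to this class by its EGF libraries, but with NRG-1 it was at 4, 7, 16 and 10 counts at 1 hour and 802, 748, 775 and 718 counts at 4 hours, a ratio of 97.2 (95% interval 70.3 to 138). It encodes an ETS factor of the PEA3 group. *ETV5*, of the same group, rose from 1.56, 1.26, 0.879 and 0.963 CPM to 6.65, 6.48, 5.86 and 6.28 CPM (2.47 ± 0.16), and the abundant *ETV1* was at 320.2 ± 17.7 CPM and then 425 ± 11.2 CPM (0.41 ± 0.06), under the fold limit.

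Late genes were chosen as flat at 1 hour and above CSS at 4 hours of EGF, so that shape is set by the choice. With NRG-1 the median log2 fold change of the class over CSS was -0.003 at 1 hour and 1.44 at 4 hours. Among its genes that were higher, the median change from 1 to 4 hours was 1.72. Of the 446 late genes that were higher, 418 had groups that did not overlap, 169 rose over 4-fold, and 39 over 16-fold. Among all 16995 genes tested, the groups lay apart in this direction for 2132. *IGF2BP2*, an RNA-binding protein of the IGF2 mRNA-binding family, had the largest rise of the genes whose log2 CPM averaged 1 or more, from 7, 5, 3 and 3 counts to 753, 590, 359 and 294 counts, a ratio of 131 (95% interval 82.7 to 221). *IGF2*, the growth factor, rose from 0.384, 0.353, 0.489 and 0.446 CPM to 9.27, 8.26, 6.81 and 4.72 CPM (4.12 ± 0.30), with the caveat that it shares exons with the *INS-IGF2* readthrough gene. *SIPA1L2*, a regulator of the small GTPase RAP, became abundant, from 21.0, 17.6, 18.0 and 12.7 CPM to 633, 529.7, 431 and 307 CPM (4.76 ± 0.15, adjusted P = 6.64e-20). *ARAP2*, an ARF GTPase-activating protein, rose from 3.20, 2.63, 4.05 and 3.62 CPM to 72.4, 66.3, 58.5 and 50.2 CPM (4.19 ± 0.15), and *PGBD5*, a domesticated transposase, from 3.15, 2.73, 2.16 and 1.77 CPM to 58.5, 53.8, 29.2 and 23.0 CPM (4.01 ± 0.15). In *PGBD5*, *B3GAT1*, and *IGF2BP2* the 4-hour level of batch 1 was higher than that of batch 2, and the groups did not overlap in either batch.

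Receptors and signaling proteins were among the other late rises. *TGFBR2*, the type II receptor for TGF-β, rose from 0.780, 0.445, 0.556 and 0.587 CPM to 13.1, 12.5, 11.3 and 9.20 CPM (4.28 ± 0.12), and *CHRM3*, a muscarinic receptor, from 0.397, 0.432, 0.512 and 0.399 CPM to 4.48, 5.13, 6.23 and 6.02 CPM (3.64 ± 0.16). *TCF7*, a transcription factor of WNT signaling, rose from 0.397, 0.392, 0.623 and 0.411 CPM to 13.1, 11.2, 7.05 and 7.12 CPM (4.33 ± 0.23). *B3GAT1*, a glucuronyltransferase, rose from 0.359 ± 0.114 CPM to 9.76 ± 4.10 CPM (4.71 ± 0.18), *NDRG4* from 0.452 ± 0.0583 CPM to 6.77 ± 1.87 CPM (3.91 ± 0.26), and *FAM131B* from 1.36 ± 0.520 CPM to 17.3 ± 5.66 CPM (3.68 ± 0.16). Of 21 genes of plasminogen activation and cell adhesion (integrins and laminins among them), 8 rose and 0 fell, with a median of 0.72. Over all genes 4.52% rose and 2.27% fell. The largest rise of the list was that of *TNC*, tenascin C (0.400 ± 0.0537 CPM to 5.66 ± 2.46 CPM, 3.75 ± 0.29). *EPHA1* was the only 1 of 12 ephrin and Eph receptor genes that rose (15.8 ± 1.81 CPM to 42.7 ± 7.30 CPM, 1.43 ± 0.08), and 0 of the 12 fell, beside 4.52% of all genes higher and 2.27% lower. By the adjusted P value alone 3 of the 12 were higher and 5 lower, beside 19.0% and 18.5% of all genes.

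Among receptors of the NRG-1 pathway, *EGFR* started late while *ERBB3* did not. *EGFR* rose from 32.6, 24.4, 27.8 and 19.4 CPM to 90.1, 73.4, 71.4 and 51.9 CPM (1.45 ± 0.15, adjusted P = 7.04e-09). *ERBB2* rose less, from 284, 270.1, 257 and 193 CPM to 477, 422, 387 and 287 CPM (0.64 ± 0.10, adjusted P = 5.35e-06), and its groups did not overlap although the change is under the fold limit. *ERBB3*, which binds NRG-1, was at 194, 186, 228 and 177 CPM and then at 166, 162, 192 and 139 CPM (-0.25 ± 0.10, adjusted P = 0.0435), with overlapping groups. *ERBB4* was at the edge of detection, with 5, 4, 8 and 13 counts and then 2, 2, 0 and 4 counts. It passed the test (adjusted P = 0.0344) but not when any of 4 of the 8 libraries was left out (adjusted P = 0.0601 to 0.142) or with either batch alone. *ERRFI1*, a feedback inhibitor of these receptors, fell from 99.3, 87.2, 97.1 and 102 CPM to 45.0, 44.5, 41.8 and 45.6 CPM (-1.13 ± 0.08, adjusted P = 6.58e-13). The ubiquitin ligases *CBL* (0.84) and *CBLB* (0.63) and the receptor-restraining *LRIG3* (0.43) were higher, and *RNF41* (-0.57), which targets ERBB3, and *LRIG1* (-0.45) lower, all under the fold limit. Without the 1-hour library of batch 2 replicate 1 *CBL* was just past it, at a log2 fold change of 1.00 (adjusted P = 5.33e-05), as it was with batch 1 alone (1.07). In all 2 of 10 ERBB receptors and regulators fell and 1 rose. Over all genes 2.27% fell and 4.52% rose, which also stands beside the ligand counts that follow. Of 8 EGF-family ligand genes tested only *AREG*, amphiregulin, fell, from 1.28, 1.31, 1.70 and 1.76 CPM to 0.934, 0.674, 0.397 and 0.735 CPM (-1.18 ± 0.23, adjusted P = 0.000153), and 0 rose. With batch 1 alone *AREG* was at -0.69 and not a DEG. *HBEGF* was at 35.7 ± 1.64 CPM and then 19.5 ± 2.87 CPM (-0.89), and was a DEG with batch 2 alone (-1.07). Of the others *EGF* (0.06), *TGFA* (0.08), *BTC* (-0.04), and *NRG4* (-0.29) did not pass the P value. *NRG2* was close to absent, with a summed 10 counts and then 21 (ratio 2.48, 95% interval 1.12 to 5.90), and passed the test only without the 1-hour library of batch 2 replicate 1 (1.94, adjusted P = 0.0401).

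Of the genes that EGF repressed early, 7 were higher at 4 hours than at 1 hour of NRG-1. *TXNIP*, a thioredoxin-binding arrestin that restrains glucose uptake, was at 132, 148, 135 and 139 CPM at 1 hour and at 344, 343, 294 and 300.3 CPM at 4 hours (1.20 ± 0.07, adjusted P = 7.94e-14), against 464 ± 77.3 CPM in CSS. Its relative *ARRDC3* went from 37.6, 48.0, 42.8 and 62.4 CPM to 137, 144, 119.6 and 164 CPM (1.57 ± 0.13), against 125 ± 12.1 CPM in CSS. *SOX9* (3.72 ± 0.449 CPM to 8.64 ± 1.14 CPM, 1.21 ± 0.11) and *TNFAIP3*, an inhibitor of NF-κB signaling (1.05 ± 0.0921 CPM to 2.77 ± 0.713 CPM, 1.36 ± 0.15), also rose. The mean of *TXNIP* at 4 hours was below that of CSS, and those of *ARRDC3*, *SOX9*, and *TNFAIP3* above it.

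Genes repressed late were chosen as near CSS at 1 hour of EGF, and with NRG-1 their median log2 fold change over CSS at 1 hour was -0.16. In this class 183 genes were lower, 159 with groups that did not overlap, and 17 fell over 4-fold. Among all 16995 genes tested, the groups lay apart in this direction for 1886. *RANBP3L* fell from 14.3, 14.7, 10.5 and 15.4 CPM to 2.27, 2.33, 2.06 and 3.38 CPM (-2.45 ± 0.15). *SRGAP3*, a GTPase-activating protein, fell from 18.8, 16.0, 16.1 and 11.6 CPM to 3.24, 3.01, 3.77 and 2.45 CPM (-2.32 ± 0.15). *BMF*, a pro-apoptotic member of the BCL2 family, fell from 13.7, 13.5, 13.0 and 10.2 CPM to 2.78, 2.30, 3.21 and 2.54 CPM (-2.21 ± 0.12), and *TNFSF4*, a TNF-family ligand, from 7.26 ± 0.852 CPM to 1.70 ± 0.179 CPM (-2.10 ± 0.09). The 29 FOXO and PI3K-responsive genes tested were split, with 6 that fell and 5 that rose, beside 2.27% and 4.52% of all genes. *IRS1* rose (6.29 ± 1.42 CPM to 17.9 ± 2.78 CPM, 1.50 ± 0.17), whereas *TRIB1* and *BMF*, given above, were the largest falls of the list. The circadian clock is a loop of activators and repressors, and of 15 clock genes tested 2 fell and 1 rose, beside the same shares. *PER1*, which EGF had induced early, fell from 27.3 ± 7.44 CPM to 6.39 ± 0.778 CPM (-2.07 ± 0.13), *ARNTL* from 9.47 ± 1.55 CPM to 3.90 ± 0.766 CPM (-1.28 ± 0.09), and *BHLHE41* rose from 0.844 ± 0.138 CPM to 3.15 ± 0.640 CPM (1.90 ± 0.14).

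Of 24 androgen-responsive genes tested, 1 fell, 1 rose, and 12 were lower and 3 higher by the adjusted P value alone, with a median log2 fold change of -0.20. Over all genes 2.27% fell and 4.52% rose as DEGs, and 18.5% were lower and 19.0% higher by the P value alone. *KLK2*, a kallikrein related to prostate-specific antigen, fell from 14.3, 18.0, 14.5 and 14.2 CPM to 4.67, 6.95, 6.69 and 6.94 CPM (-1.27 ± 0.12, adjusted P = 7.34e-10), and *FKBP5*, a co-chaperone of steroid receptors, rose from 59.9, 57.9, 69.3 and 59.2 CPM to 151, 148, 131 and 109 CPM (1.13 ± 0.09, adjusted P = 3.44e-11). With batch 2 alone *FKBP5* was at 0.92 and not a DEG. Of the 10 luminal markers, several of which are androgen-responsive, 7 were lower and 2 higher by the adjusted P value alone (beside the same 18.5% and 19.0%), and their part in these changes was not tested. A change in the androgen genes and 3 hours more in hormone-poor medium cannot be told apart here.

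Growth and metabolic genes changed by small amounts. Of 36 ribosome biogenesis genes tested 0 were DEGs, but 26 were higher and 0 lower by the adjusted P value alone, with a median log2 fold change of 0.28, beside 19.0% of all genes higher by that rule. Of 16 genes of the G2 and M phases 0 were DEGs, and 9 were lower and 0 higher by the adjusted P value alone, with a median of -0.28, beside 18.5% of all genes lower. Neither list held a 2-fold change. Among 25 G1 and S genes *CDKN1B*, the cell cycle inhibitor p27, was the only DEG and fell from 159.6, 160.3, 157 and 169 CPM to 74.2, 71.0, 77.0 and 77.3 CPM (-1.11 ± 0.05, adjusted P = 7.19e-17). Among 23 cholesterol genes *STARD4*, a sterol carrier, rose (14.2 ± 5.10 CPM to 28.4 ± 9.59 CPM, 1.00 ± 0.14), at a value so near the fold limit that it was lost when any of 4 single libraries was left out (0.86 to 0.97). Of 23 glycolysis genes only *SLC2A1*, the glucose transporter GLUT1, was a DEG and fell (65.0 ± 7.19 CPM to 29.6 ± 3.50 CPM, -1.14 ± 0.06). Of 24 ATF4 and amino acid genes 2 fell and 0 rose, *CHAC1* (50.3 ± 1.89 CPM to 14.5 ± 4.97 CPM, -1.83 ± 0.14), which degrades glutathione, and *SESN2* (68.3 ± 7.48 CPM to 32.7 ± 6.08 CPM, -1.07 ± 0.12), a stress-induced inhibitor of mTORC1. Without the 4-hour library of batch 1 replicate 2 *SESN2* was at -0.996 and with batch 2 alone at -0.87, within the fold limit. Among 15 NF-κB genes *TNFAIP3* and *RELB* (1.72 ± 0.228 CPM to 4.69 ± 0.763 CPM, 1.44 ± 0.15) rose and *CXCL8* fell. The DEGs in these lists stand beside 2.27% lower and 4.52% higher over all genes. They describe single genes, and no list was tested against these shares.

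To ask whether the change from 1 to 4 hours differed between the 2 ligands, the difference of the changes was tested (NRG-1 minus EGF). Of 16995 genes, 14 (0.0824%) passed, 10 with a higher change with NRG-1 and 4 with a lower one, and 1049 had an unadjusted P value under 0.05. The 4 genes whose change was lower with NRG-1 are all early genes. *EGR1* was nearly alike at 1 hour, 1352 ± 257 CPM with NRG-1 and 1316 ± 291 CPM with EGF, but at 4 hours it was 65.7 ± 9.28 CPM with NRG-1 and 563 ± 94.1 CPM with EGF. The difference of the log2 changes was -3.14 ± 0.44 (SE; adjusted P = 0.000177). *ZFP36* went from 90.5 ± 14.9 to 16.6 ± 2.28 CPM with NRG-1 and from 105 ± 10.6 to 47.8 ± 5.56 CPM with EGF (-1.31 ± 0.14, adjusted P = 4.99e-06). *JUNB* fell by 2.00 on the log2 scale with NRG-1 and by 0.83 with EGF (-1.16 ± 0.17). *DUSP6* was level with NRG-1 (0.01) and rose from 13.1 ± 0.900 to 27.3 ± 4.68 CPM with EGF (-1.05 ± 0.15). These 4 mRNAs thus stood lower at 4 hours of NRG-1 than at 4 hours of EGF.

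Of the 10 genes with a higher change with NRG-1, 8 were induced early by EGF, and 7 of these fell with both ligands, less with NRG-1, and from a lower 1-hour mean with NRG-1. *FOSB* was 49.3 ± 8.24 CPM at 1 hour of NRG-1 and 149 ± 44.3 CPM at 1 hour of EGF, and at 4 hours 1.20 ± 0.425 and 0.869 ± 0.0703 CPM (2.05 ± 0.33, adjusted P = 0.000604). *C8orf4* (1.68 ± 0.28), *CYR61* (1.66 ± 0.18), and *ATF3* (1.32 ± 0.24) behaved likewise, with 1-hour means of 9.01 ± 2.80, 73.8 ± 13.0, and 326 ± 42.1 CPM with NRG-1 and 21.5 ± 2.88, 180.2 ± 47.8, and 674 ± 135 CPM with EGF. *TUFT1*, *DNAJB4*, and *GBP1*, which were chosen after their values were seen, had the same pattern. *TUFT1* had 1-hour means of 203 ± 18.7 CPM with NRG-1 and 337 ± 34.5 CPM with EGF and passed with the lowest adjusted P value of the 14 (1.23 ± 0.10, adjusted P = 3.2e-08). *DNAJB4* (1.00 ± 0.14) passed in 8 and *GBP1* (1.17 ± 0.26) in 7 of the 16 fits that left out 1 library. The remaining genes passed in fewer of these fits. *FHL2* and *TINAGL1* passed in 5 each, and *COL13A1*, a rare mRNA with a mean of 0.162 CPM at 1 hour of NRG-1, in 3. The 4 lower genes and *FOSB*, *C8orf4*, *CYR61*, and *ATF3* had the same sign in both batches, -3.42 in batch 1 and -2.86 in batch 2 for *EGR1*, -1.59 and -1.03 for *ZFP36*, -1.33 and -0.98 for *JUNB*, -1.22 and -0.84 for *DUSP6*, 1.66 and 2.28 for *FOSB*, 1.74 and 1.81 for *C8orf4*, 2.04 and 1.26 for *CYR61*, and 1.36 and 1.17 for *ATF3*. These 8 genes were called on both batches together, so a shared sign is not a separate test. With batch 1 alone 29 genes passed and with batch 2 alone 0 (376 at an unadjusted P value under 0.05), and 9 passed without the 1-hour EGF library of batch 1 replicate 1. DESeq2 called 17. Of these 8 genes 7 passed whichever of the 16 libraries was left out. *DUSP6* did not (-0.96 at the smallest size) without either 4-hour EGF library of batch 1 or without the 1-hour NRG-1 library of batch 2 replicate 2.

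**Figure D5:**
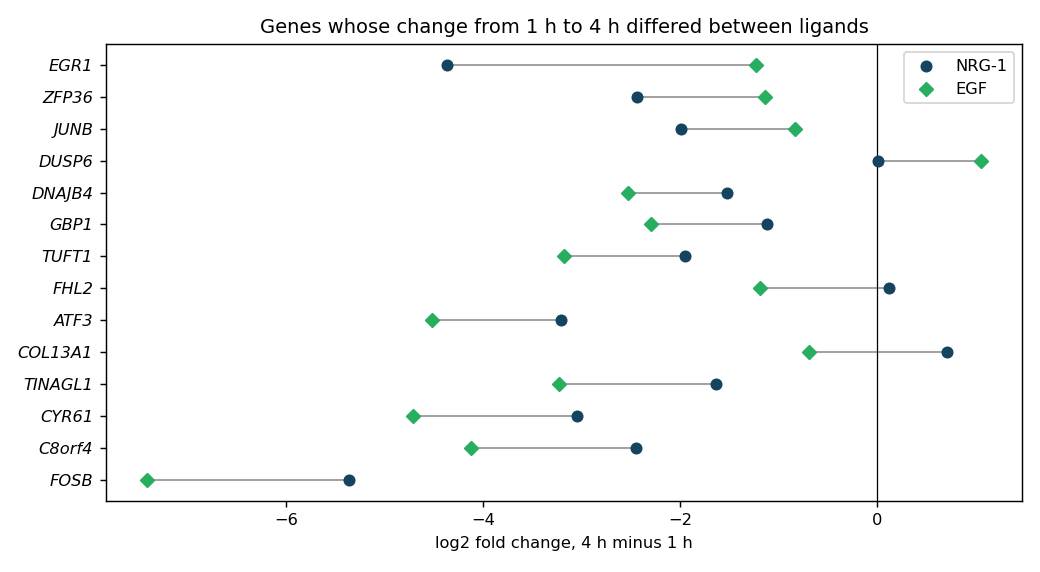
Log2 fold change from 1 hour to 4 hours with NRG-1 (circles) and with EGF (diamonds) for the 14 genes whose change differed between the ligands. *EGR1*, *ZFP36*, *JUNB*, and *DUSP6* lie further left with NRG-1, and the other 10 further right, among them *FOSB* at -5.36 with NRG-1 and -7.41 with EGF.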

How the data were processed

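RNA of LNCaP cells was sequenced from 32 libraries, 8 groups of 4, and the 8 NRG-1 libraries at 1 and 4 hours are compared here. Per the labels, the authors trimmed reads with Trimmomatic 0.36 and aligned and quantified them with STAR 2.7.0f and RSEM, and the labels name build hg19. The authors deposited expected counts and TPM (length-corrected levels with the same total in each library) per gene and library. The counts estimate how reads that map to several genes divide, so values of near-identical genes are uncertain. Both are relative to the library, and a change in total mRNA per cell would not be seen.

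Expected counts, of which 11.2% were not whole, were rounded and fitted with the quasi-likelihood test of edgeR 4.0.16 (R 4.3.3) with TMM factors, group and batch as terms, and all 32 libraries, so that the spread was estimated over all groups. Genes needed 5 counts in at least 3 libraries, which kept 16995 of 25498. DEGs had a Benjamini-Hochberg adjusted P value under 0.05 over all genes tested and a log2 fold change beyond 1. Rare mRNAs were also compared by summed counts, with exact binomial 95% intervals. Coordinates and sequences are from GRCh38 (GENCODE v44, RefSeq), matched by symbol and not converted to hg19. Alternatives used DESeq2 1.42.0, limma 3.58.1 on log2 TPM, other filters, other terms, single batches, and each library left out. The edgeR fit was tested on simulated data.

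Named genes were the 12 largest falls and the 12 largest rises whose log2 CPM averaged 1 or more and that kept 1 direction in all 4 same-numbered pairs, up to 4 per direction and EGF class, the 5 most abundant early genes that were not DEGs, up to 2 DEGs per direction and gene list, all members of 10 short lists, and up to 4 per direction from the ligand difference. *SRF*, *GDF15*, *TUFT1*, *DNAJB4*, *GBP1*, *FHL2*, *TINAGL1*, *COL13A1*, and the genes at class limits were chosen after their values were seen. Some genes that the rule names are not reported here. The members and lists were chosen with earlier results of these data known. Replicate numbers were checked for pairing. Labels give 2 batches and number the libraries within each, and deviations from the group means of same-numbered libraries correlated at 0.322, 0.221, 0.274, and 0.505 for the 4 pairs, of which 0.0663 (batch 1) and 0.380 (batch 2) remained after removal of batch means. No pair of libraries among the 12 within a time group of NRG-1, which include pairs across batches, agreed within counting noise (chi-square per degree of freedom 16.3 to 222).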

Additional observations from a re-analysis of the deposited data

Results flagged for a closer look

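In 10 of 256 groups of 4 libraries tested over the named genes, 1 library lay far from the other 3 by Dixon's criterion at the 95% level, which chance alone passes in about 1 in 20 groups (13 of 256). *KLK2* was at 18.0 CPM in 1 library at 1 hour (batch 1 replicate 2, others 14.2 to 14.5) and at 4.67 CPM in 1 library at 4 hours (batch 1 replicate 1, others 6.69 to 6.95). *RNF41* was at 195.7 CPM at 1 hour in batch 2 replicate 2 (others 168 to 172). *MMP14* was at 0.0397 CPM at 1 hour in batch 1 replicate 1 (others 0.0654 to 0.0705) and at 0.107 CPM at 4 hours in batch 2 replicate 1 (others 0.0400 to 0.0459), values that rest on 3 to 7 counts. *DUSP7* was at 21.4 CPM at 4 hours in batch 2 replicate 2 (others 26.8 to 27.3). *SPRED1* was at 19.1 CPM at 1 hour in batch 1 replicate 1 (others 16.2 to 16.7). *VGF* was at 4.77 CPM at 1 hour in batch 1 replicate 2 (others 5.40 to 5.49). *TCF7* was at 0.623 CPM at 1 hour in batch 2 replicate 1 (others 0.392 to 0.411). *B3GAT1* was at 0.529 CPM at 1 hour in batch 1 replicate 1 (others 0.294 to 0.311). In none of these genes did the call depend on that library.

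For 8 named genes the change from 1 to 4 hours differed between NRG-1 and EGF by the test of the difference itself. NRG-1 minus EGF was -3.14 for *EGR1*, -1.31 for *ZFP36*, -1.16 for *JUNB*, and -1.05 for *DUSP6*, and it was 2.05 for *FOSB*, 1.68 for *C8orf4*, 1.66 for *CYR61*, and 1.32 for *ATF3* (log2).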

How the results depend on the processing

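Of 128 named genes 81 were DEGs, 65 of these in every setting that could test them, and of the 47 others 41 in none. No DEG reversed. DESeq2 gave 379 lower and 751 higher genes. With at least 10 counts in every library there were 197 lower and 366 higher genes, and 16 early genes higher, 288 late genes higher, and 111 late-repressed genes lower. That filter also takes out genes that are near 0 at 1 time. Batch 2 alone gave 217, 510, and 114 late-repressed lower. With limma on log2 (TPM + 1) there were 102 lower and 209 higher genes (207 higher with no filter), 50 early genes lower, 18 early genes higher, 162 late genes higher, 2 early-repressed genes higher, and 37 late-repressed genes lower. The pseudocount makes fold changes of rare genes smaller, and with log2 (TPM + 0.1) these were 181, 335, 21 early higher, 257 late higher, and 89 late-repressed lower. With no fold limit there were 3140 lower and 3234 higher genes, 119 early lower, 60 early higher, 21 early-repressed higher, 355 late-repressed lower, and 86 that differed between ligands. That ligand count was 14, 8 with no batch term, 29 in batch 1 alone, and 0 in batch 2 alone (376 at an unadjusted P value under 0.05 in edgeR; DESeq2 was not run on that batch). The cause was not tested.

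When each library was left out, 340 to 399 genes were lower, 714 to 792 higher, 74 to 79 early genes lower, 36 to 41 early genes higher, 422 to 464 late genes higher, 7 to 8 early-repressed genes higher, 165 to 205 late-repressed genes lower, and 9 to 16 differed between ligands. The count of 9 came without the 1-hour EGF library of batch 1 replicate 1. With the replicate block there were 397 lower, 776 higher, 78, 39, 447, 7, and 187 genes in the classes in this order, and 19 that differed between ligands, and the block changed no call of a named gene.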
